A study of Rattus norvegicus with 18 samples.

Results

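The 8 genes described here encode the colony-stimulating factors and their receptors. They were taken by symbol from the gene tables of primary rat astrocytes and microglia: the ligands Csf1, Il34, Csf2 and Csf3, and the receptor chains Csf1r, Csf2ra, Csf2rb and Csf3r. All 8 symbols were found among the 17307 symbols of the astrocyte tables and the 17327 symbols of the microglia tables, and all 8 passed the filter on low counts in both cell types. RNA was sequenced from wild-type cells of neonatal Sprague-Dawley rat cortex that were left untreated, or were exposed for 24 h to fibrils of Aβ42 or of Aβ40, the long and the short form of the amyloid β-protein. The untreated cells passed through the same change to serum-free medium as the treated cells. Each of the 6 groups held 3 libraries, which gave 18 libraries in all. The cells of both types came from the same kind of mixed glial flask, in which the microglia were shaken off and the astrocyte layer was then replated, and nothing in the labels says whether the 3 libraries of a group came from separate litters or flasks. The p-values therefore measure the spread between these libraries, which may be technical.

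Colony-stimulating factors are secreted proteins that keep myeloid cells alive and direct their growth and maturation. CSF1 and IL-34 both bind the receptor tyrosine kinase CSF1R, on which microglia depend for survival, while GM-CSF (encoded by Csf2) signals through an α chain (Csf2ra) paired with the β chain shared with other cytokines (Csf2rb), and G-CSF (encoded by Csf3) signals through CSF3R, best known from neutrophils. GM-CSF and G-CSF are typically made only after an inflammatory stimulus such as interleukin-1 or TNF, and their short-lived mRNAs carry AU-rich elements.

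The libraries held between 3674043 and 19013919 counts on genes in astrocytes and between 2271834 and 22274367 in microglia, so that 3 counts, taken as the floor of detection, corresponded to 0.160 to 0.835 and 0.130 to 1.38 CPM (the count relative to the library's total, scaled by the TMM factors of edgeR). Levels below are scaled CPM, which compare libraries for the same gene and not different genes. The cell type labels held: of 20 microglial markers 19 were higher in untreated microglia than in untreated astrocytes, where 34.2% of all genes were. The summed level of 13 astrocyte markers was 10361 to 12938 CPM in untreated astrocytes and 1348 to 1521 CPM in untreated microglia. The untreated astrocyte cultures also held microglial RNA, with 743 to 844 CPM over the 20 markers against 12112 to 13919 CPM in untreated microglia. Markers of neutrophils summed to at most 0.718 CPM in untreated and to 3.45 to 14.8 CPM in treated libraries. One library stood apart: microglia Aβ42 replicate 1 correlated more closely with the Aβ40 libraries (mean Pearson r of log2 CPM across 10837 genes 0.978) than with the other two Aβ42 libraries (0.961), which correlated with each other at 0.996. For Csf1, Csf1r, Csf2, Csf2ra and Csf2rb the change with Aβ42 in microglia is therefore also given without it. So are the calls among the 8 genes between the fibrils. With any 1 library left out, the log2 fold change with Aβ42 was 7.60 to 8.15 for Csf3, 2.54 to 3.44 for Il34 and -5.18 to -5.02 for Csf3r. Results for all other genes are given with all libraries only.

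With both fibrils Csf2 and Csf3 rose and Csf1r and Csf3r fell in the cultures of both cell types. In astrocytes the cultures exposed to Aβ42 differed from control in 5 of the 8 genes, 3 higher and 2 lower, at an adjusted p under 0.05 (quasi-likelihood test of edgeR, adjusted over all genes by the Benjamini-Hochberg method), where 37.0% of the 11690 genes tested did so, 16.5% higher and 20.4% lower. With Aβ40 6 of the 8 differed, 4 higher and 2 lower, where 33.3% of all genes did (14.9% and 18.4%). In microglia 7 of the 8 differed with either fibril, 5 higher and 2 lower each time, where 53.7% of the 10837 genes tested did so with Aβ42 (27.1% higher, 26.6% lower) and 41.0% with Aβ40 (19.6% and 21.4%). Both fibril comparisons of a cell type share its control libraries. At a change of 5-fold or more, 4 of the 8 genes in astrocytes and 5 of the 8 in microglia were called with either fibril, where 6.27% and 5.42% of all genes in astrocytes and 6.26% and 5.83% in microglia were called with Aβ42 and Aβ40.

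**Figure D1:**
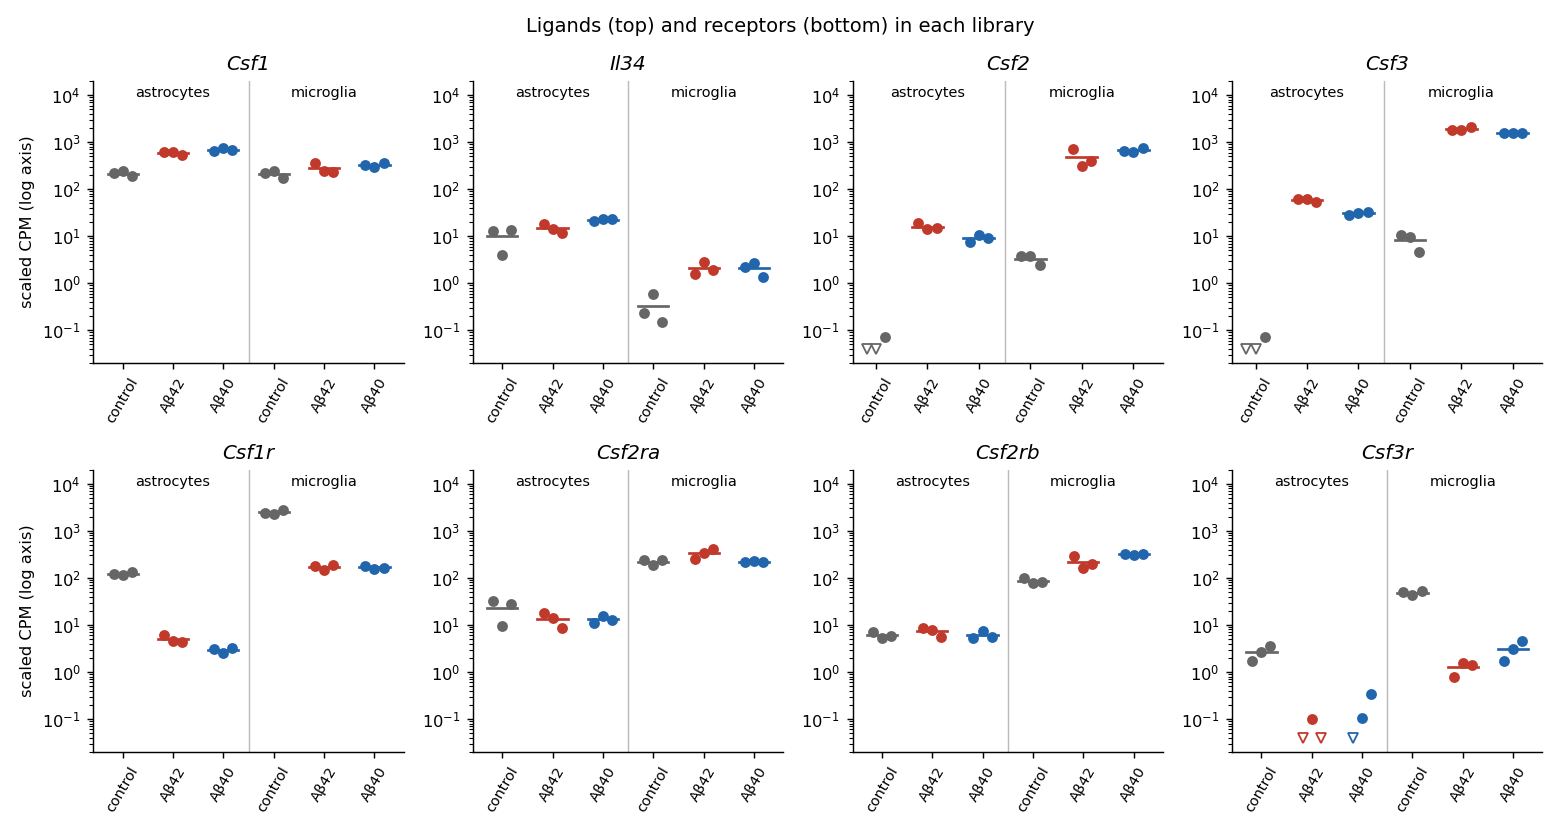
Scaled CPM on a log axis for the 4 ligands (top row) and the 4 receptor chains (bottom row), with 1 point per library, 3 per group, and a horizontal line at the mean of groups in which every library had a count; open triangles mark libraries with 0 counts and sit at an arbitrary height. Csf2 and Csf3 rise from at most 1 count in untreated astrocytes and from 2.44 to 10.5 CPM in untreated microglia, while Csf1r and Csf3r fall in the cultures of both types without overlap between control and fibril libraries.

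The 250 bases before the annotated start of 3 of the genes are shown. Csf2 rose in the cultures of both cell types and Csf3r fell in both. Against control, Csf2ra was called only in microglia with Aβ42, where it rose. They are from RefSeq, build GRCr8, 5′ to 3′ on the gene's strand; promoters of 4 of the 8 genes were matched (also Csf1r, not printed). Capitals mark matches, on either strand, to a TATA box (TATANAA), part of the CK-1 element known from the Csf2 and Csf3 promoters (AGATTCC), the core of the myeloid factor PU.1 (GAGGAA) and the NF-κB consensus (GGGRNYYYCC, with R for A or G and Y for C or T). Matches to AP-1 (TGANTCA) were also searched for.
Csf2, chr10:38889674-38889923, minus strand: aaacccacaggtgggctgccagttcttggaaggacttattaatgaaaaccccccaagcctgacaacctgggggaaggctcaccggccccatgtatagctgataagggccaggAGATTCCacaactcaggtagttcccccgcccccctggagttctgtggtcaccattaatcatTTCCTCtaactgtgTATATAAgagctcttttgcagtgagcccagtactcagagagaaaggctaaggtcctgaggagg
Csf3r, chr5:143582970-143583219, plus strand: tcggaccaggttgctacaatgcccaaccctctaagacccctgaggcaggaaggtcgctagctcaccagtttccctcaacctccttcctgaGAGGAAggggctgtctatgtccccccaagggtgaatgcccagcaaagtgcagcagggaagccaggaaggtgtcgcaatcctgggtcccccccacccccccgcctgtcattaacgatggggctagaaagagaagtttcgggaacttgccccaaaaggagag
Csf2ra, chr14:118118-118367, minus strand: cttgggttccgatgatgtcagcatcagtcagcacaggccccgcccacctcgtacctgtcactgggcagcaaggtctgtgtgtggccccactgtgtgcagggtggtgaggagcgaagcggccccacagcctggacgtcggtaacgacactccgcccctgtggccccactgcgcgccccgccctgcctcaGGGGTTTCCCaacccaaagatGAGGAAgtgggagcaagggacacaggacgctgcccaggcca

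Among 33469 rat promoters of this length, the CK-1 letters occurred in 1086 (3.24%), and of the 4 genes only Csf2 held them, 138 bases before its start. Csf2 also held the TATA box letters 63 bases before the start, as did 11.6% of promoters. The PU.1 core, present in 23.3% of promoters, was found once in Csf2, Csf2ra and Csf3r and at 2 places in Csf1r. The NF-κB consensus, present in 4.24%, was found in Csf2ra alone of the 4, and AP-1, present in 6.34%, in none. These are exact matches of letters and carry no measurement of binding. Sites that depart from the searched letters were not counted, so the lack of a match, as for NF-κB in Csf2, does not show the lack of a site.

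Csf2, which encodes GM-CSF, was all but absent from untreated astrocytes, with 0, 0 and 1 counts in replicates 1 to 3. It was at 18.9, 14.0 and 14.7 CPM in the Aβ42 libraries and at 7.38, 10.4 and 9.36 CPM in the Aβ40 libraries. All 6 treated libraries thus lay above all controls. How much of this came from microglial RNA in the astrocyte cultures was not tested. Because the control group held 1 count in total, the ratio of pooled counts is given with its exact 95% counting interval, which covers counting error only: 359 (64.1 to 14198) for Aβ42 and 206 (36.7 to 8149) for Aβ40. edgeR's adjusted p was 2.08e-07 and 8.29e-07.

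In microglia Csf2 was detected without treatment, at 3.77, 3.86 and 2.44 CPM. It reached 713, 313 and 404 CPM with Aβ42 and 662, 633 and 756 CPM with Aβ40. The first of the Aβ42 values, from the library that stood apart, lay within the range of the Aβ40 libraries, and all treated libraries were far above the controls. The log2 fold change was 7.13 ± 0.34 (SE; edgeR, adjusted p = 7.39e-09) with Aβ42 and 7.66 ± 0.35 (adjusted p = 5.83e-09) with Aβ40, and 6.73 (adjusted p = 2.39e-14) with Aβ42 when replicate 1 was left out. On the scale common to the 18 libraries, the order of Csf2 was microglia with Aβ40 (759 ± 64.6 CPM, SD, n = 3), microglia with Aβ42 (532 ± 220.2), astrocytes with Aβ42 (15.0 ± 2.38), astrocytes with Aβ40 (8.53 ± 1.33), untreated microglia (3.74 ± 0.901) and untreated astrocytes, and only the first pair overlapped. Untreated microglia had 88.3 times the Csf2 level of untreated astrocytes, with a counting interval of 15.3 to 3540 that reflects the single astrocyte count.

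Csf3, which encodes G-CSF, followed the same course. In untreated astrocytes it had 0, 0 and 1 counts. With Aβ42 it was at 63.2, 61.9 and 52.5 CPM and with Aβ40 at 28.7, 30.7 and 32.1 CPM, so that the groups did not overlap and the Aβ42 libraries were the higher of the treated ones. The pooled ratio to control was 1321 (counting interval 237 to 52184) with Aβ42 and 676 (121 to 26709) with Aβ40, with adjusted p = 5.08e-09 and 1.33e-08 by edgeR.

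Untreated microglia had 10.5, 9.47 and 4.58 CPM of Csf3. The treated libraries had 1848, 1792 and 2153 CPM with Aβ42 and 1589, 1585 and 1601 CPM with Aβ40. Control and treated libraries were again separate, and the SD of the Aβ40 libraries was 8.18 CPM. The log2 fold change was 7.87 ± 0.24 (edgeR, adjusted p = 5.26e-10) with Aβ42 and 7.59 ± 0.24 (adjusted p = 6.66e-10) with Aβ40. On the common scale Csf3 was highest in microglia with Aβ42 (2170 CPM) and then with Aβ40 (1768). Astrocytes with Aβ42 (56.1) and Aβ40 (28.8) followed, then untreated microglia and untreated astrocytes. No neighbours in this order overlapped. The part that microglial RNA had in the Csf2 and Csf3 of the astrocyte cultures was not tested. Over the 18 libraries the pattern of Csf3 was nearest to the neutrophil chemokines Cxcl3 (Pearson r of log2 CPM 0.99) and Cxcl2 (0.99), then to Csf2 (0.99), and that of Csf2 was nearest to Csf3, the cyclooxygenase gene Ptgs2 (0.99) and the cytokine gene Il1a (0.99), among 11580 other genes. The 18 points share 6 groups, and a gene that changes strongly with treatment and differs between the cell types will correlate with others that do the same.

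Csf1, the ligand of CSF1R that most tissues make at steady state, was present without treatment in both cell types. Untreated astrocytes had 219, 239 and 189 CPM. The level was 618, 609 and 545 CPM with Aβ42 and 653, 739 and 676 CPM with Aβ40, above every control library. The log2 fold change was 1.46 ± 0.12 (edgeR, adjusted p = 4.80e-06) with Aβ42 and 1.68 ± 0.12 (adjusted p = 1.96e-06) with Aβ40, which is 2.74-fold and 3.20-fold.

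In microglia Csf1 was at 225, 239 and 174 CPM without treatment, 361, 248 and 231 CPM with Aβ42, and 325, 302 and 356 CPM with Aβ40. The Aβ40 libraries lay above the controls, whereas 1 of the Aβ42 libraries was below the highest control. The log2 fold change was 0.62 ± 0.17 (edgeR, adjusted p = 0.0117) with Aβ40 and 0.39 ± 0.17 (adjusted p = 0.0716) with Aβ42, which did not pass the test. The highest Aβ42 value came from replicate 1, and without that library the log2 fold change with Aβ42 was 0.17 (adjusted p = 0.189). Without Aβ42 replicate 3 it was 0.51 and passed (adjusted p = 0.0344), and the Aβ40 change no longer passed without control replicate 3 (adjusted p = 0.0547) or Aβ40 replicate 3 (adjusted p = 0.05004). On the common scale astrocytes with Aβ40 had the most Csf1 (651 ± 34.4 CPM, SD, n = 3), then astrocytes with Aβ42 (560.1 ± 31.3), and the 4 other groups, from 363 CPM in microglia with Aβ40 to 202 CPM in untreated astrocytes, overlapped with their neighbours. Nearest to Csf1 in pattern over the 18 libraries were the interferon-inducible genes Gbp5 (r = 0.97), Cxcl9 (0.96) and Gbp4 (0.95).

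Il34, the second ligand of CSF1R, was mainly an astrocyte transcript. Untreated astrocytes had 12.8, 4.07 and 13.8 CPM, with control replicate 2 well below the others. The level was 18.1, 14.5 and 11.6 CPM with Aβ42, overlapping the controls, and 20.7, 23.8 and 23.6 CPM with Aβ40, above all of them. edgeR's log2 fold change was 0.48 ± 0.33 (edgeR, adjusted p = 0.282) with Aβ42 and 1.09 ± 0.32 (adjusted p = 0.0220) with Aβ40. The Aβ40 call was lost without Aβ40 replicate 2 (adjusted p = 0.0585) or replicate 3 (adjusted p = 0.0605).

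In untreated microglia Il34 had 2, 3 and 1 counts, equal to 0.236, 0.579 and 0.153 CPM. It had 1.60, 2.77 and 1.88 CPM with Aβ42 and 2.17, 2.68 and 1.38 CPM with Aβ40. The treated libraries were all above the controls, but none of them reached the lowest astrocyte library. The fitted log2 fold change was 2.88 ± 0.47 (edgeR, adjusted p = 0.000273) with Aβ42 and 2.83 ± 0.56 (adjusted p = 0.00152) with Aβ40, on groups of 6, 101 and 24 counts in total. The order of Il34 on the common scale was astrocytes with Aβ40 (21.4 CPM), with Aβ42 (14.0) and untreated (9.54), then microglia with Aβ42 (2.35), with Aβ40 (2.31) and untreated (0.359), where Aβ42-treated and untreated astrocytes overlapped, as did the treated microglia groups. The genes nearest to Il34 in pattern were Lama5 (r = 0.98), Lmo1 (0.98) and Vasn (0.98).

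Csf1r, the receptor for CSF1 and IL-34, fell in the cultures of both cell types. Untreated microglia had 2414, 2323 and 2745 CPM. The level was 176, 147 and 189 CPM with Aβ42 and 179.5, 154 and 166 CPM with Aβ40. The treated groups overlapped each other and lay far below the controls. On the log2 scale the fold change was -3.87 ± 0.13 (edgeR, adjusted p = 7.58e-10) with Aβ42, which was -3.90 without replicate 1, and -3.90 ± 0.13 (adjusted p = 1.16e-09) with Aβ40. These correspond to levels 14.7-fold and 15.0-fold lower. The fibrils did not differ for Csf1r in microglia, with a log2 difference of 0.03 and a 95% interval of -0.24 to 0.30.

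In the astrocyte cultures Csf1r was at 124, 113 and 134 CPM without treatment. It was at 6.04, 4.55 and 4.32 CPM with Aβ42 and 3.01, 2.57 and 3.25 CPM with Aβ40, with no overlap between control and treated libraries. edgeR's log2 fold change was -4.61 ± 0.18 (edgeR, adjusted p = 1.57e-08) with Aβ42 and -5.40 ± 0.19 (adjusted p = 1.02e-08) with Aβ40. On the common scale untreated microglia had the highest level of Csf1r (2772 ± 232 CPM, SD, n = 3) and untreated astrocyte cultures were at 115 ± 8.99 CPM, a log2 difference of 4.58 ± 0.14 (edgeR, adjusted p = 5.04e-15). Between them lay microglia with Aβ42 (191 CPM) and Aβ40 (185), which overlapped, and below them astrocytes with Aβ42 (4.71) and Aβ40 (2.79). Over the 18 libraries Anxa3 and the complement gene C1qa were among the genes nearest to Csf1r in pattern (r = 0.99 for each).

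**Figure D2:**
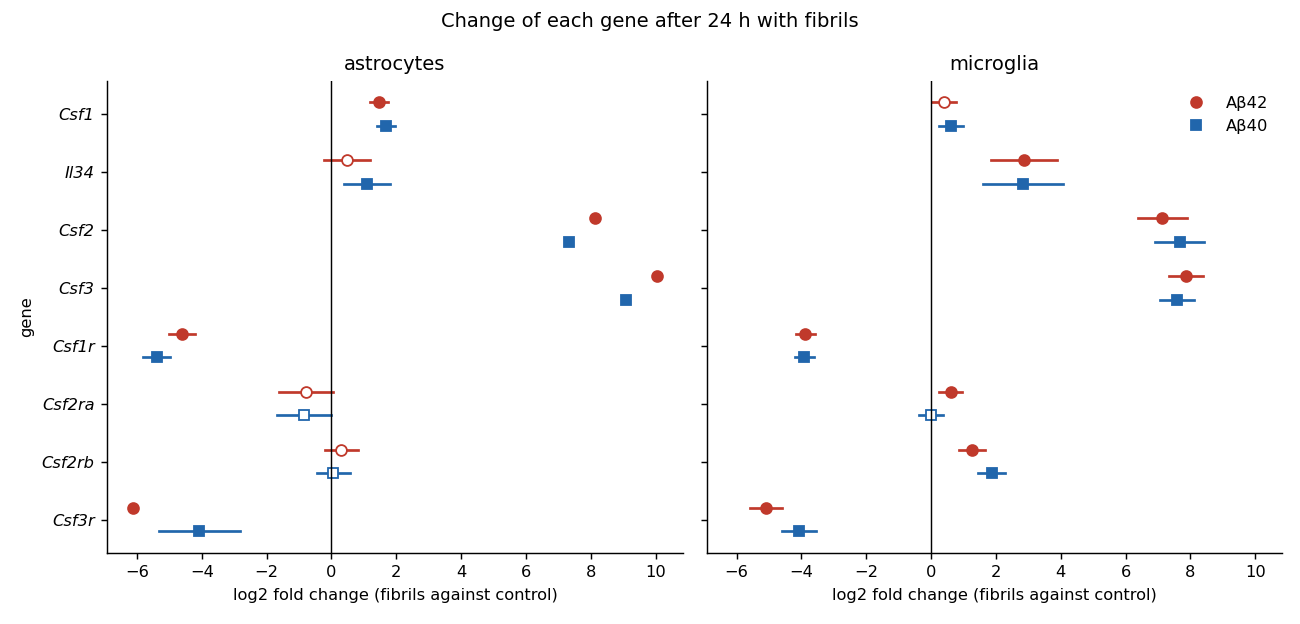
Fitted log2 fold change of each gene with Aβ42 (circles) or Aβ40 (squares) against control in astrocytes (left) and microglia (right), with 95% intervals as lines; filled symbols passed the test at an adjusted p under 0.05, and no interval is drawn where a group held at most 3 counts in total (Csf2, Csf3 and, for Aβ42, Csf3r in astrocytes). Csf2 and Csf3 lie above 7 and Csf1r and Csf3r below -3 in all 4 comparisons, while Csf2ra and Csf2rb passed the test with neither fibril in astrocytes.

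Since Csf1r is a microglial gene, its level in the astrocyte cultures was set beside that of the microglial markers. The markers fell too: the sum over 20 markers went from 743 to 844 CPM in the controls to 219 to 239 CPM with Aβ42 and 190.2 to 197 CPM with Aβ40. Of the 19 markers tested 16 fell with Aβ42, 18 fell with Aβ40 and none rose, where 20.4% and 18.4% of all genes fell. The defining markers were close to 0 in the treated cultures. Cx3cr1, a microglial chemokine receptor, had 500 counts over the 3 control libraries, 1 with Aβ42 and 2 with Aβ40, P2ry13 had 21, 0 and 1, and Gpr34 had 206, 1 and 2. In bulk RNA, fewer microglia in the astrocyte cultures and less of these transcripts in each microglia cannot be told apart.

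The microglia libraries themselves showed how far these markers move with fibrils. There 14 of the 20 markers fell with Aβ42 and 17 with Aβ40, where 26.6% and 21.4% of all genes fell. Among them were Cx3cr1 (log2 fold change -7.08 and -6.97), Gpr34 (-8.48 and -8.88) and C1qa (-3.97 and -4.23), while Itgam, an integrin of myeloid cells, rose (0.90 and 1.04). The summed level of the 20 markers was 12112 to 13919 CPM without treatment, 4923 to 7535 CPM with Aβ42 and 6093 to 7107 CPM with Aβ40. A marker that falls with fibrils in microglia does not count the microglia in a treated astrocyte culture.

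Relative to the markers, the Csf1r count of the astrocyte cultures was 15.8% ± 1.89 (SD, n = 3) of the summed marker counts in the controls, 2.14% ± 0.333 with Aβ42 and 1.53% ± 0.162 with Aβ40, which is 7.39 and 10.4 times lower. In microglia the same share was 19.6% ± 0.321, 2.89% ± 0.528 and 2.59% ± 0.296, or 6.76 and 7.53 times lower. The control and treated libraries did not overlap in any of the 4 cases, and the exact two-sided permutation test gave p = 0.1 each time, the smallest value that 3 against 3 libraries allow. The size of this fall depended on the markers chosen and on how they were summarised. With the median log2 level of the markers in place of their sum, Csf1r was 2.42 and 3.34 times lower. Against the 5 homeostatic markers Cx3cr1, P2ry12, P2ry13, Tmem119 and Gpr34, whose counts are small in the treated cultures, Csf1r did not fall. Csf1r was then 314% ± 88.8 of their summed count in the controls, 767% ± 153 with Aβ42 and 319.7% ± 98.2 with Aβ40. In microglia the share went from 1019% ± 23.1 in the controls to 3879.9% ± 2080.4 with Aβ42 and 5214% ± 879 with Aβ40.

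**Figure D3:**
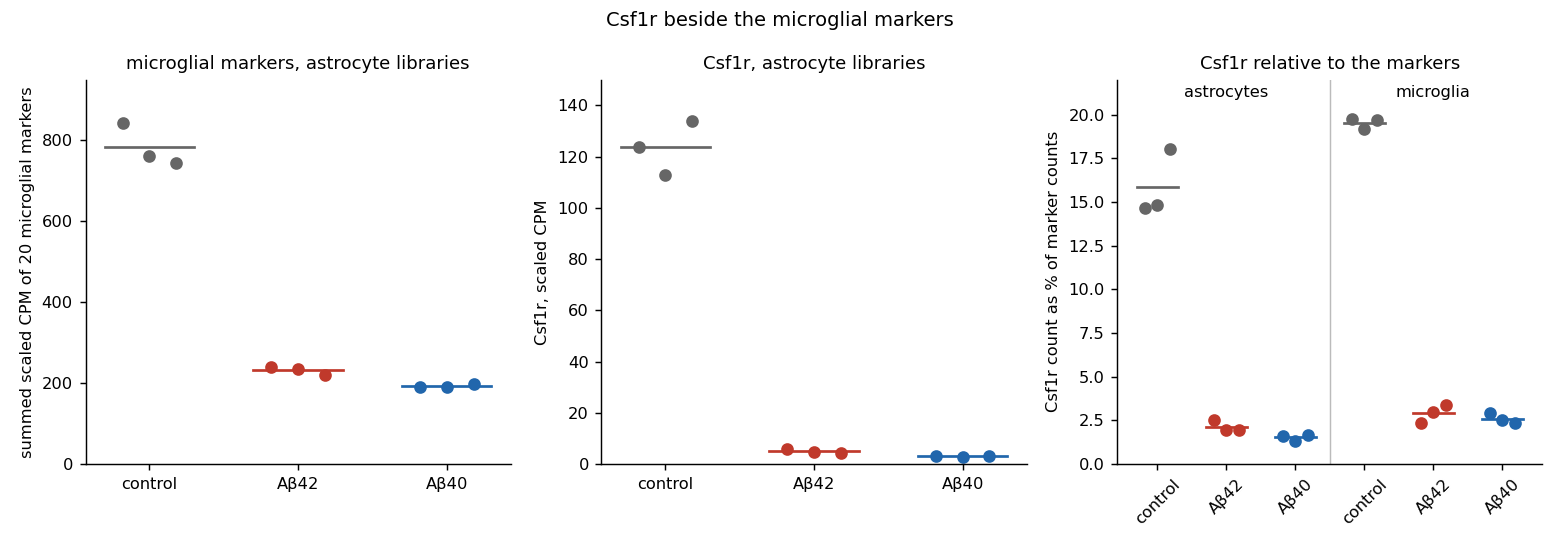
Summed scaled CPM of 20 microglial markers (left) and scaled CPM of Csf1r (middle) in the 9 astrocyte libraries, and the Csf1r count as a percentage of the summed marker counts (right) in all 18 libraries; each point is 1 library and each line a group mean of 3. Markers and Csf1r are both lower in the fibril-treated astrocyte cultures, and the percentage is 14.7 to 19.7 in untreated and 1.34 to 3.38 in treated libraries of both cell types.

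Csf3r, the G-CSF receptor, fell in the cultures of both cell types. Untreated astrocytes had 6, 11 and 51 counts, or 1.67, 2.63 and 3.59 CPM. With Aβ42 there were 0, 1 and 0 counts and with Aβ40 0, 2 and 5 counts, below every control in CPM. The control level was 101 times that of the Aβ42 group (counting interval 17.6 to 4063; edgeR, adjusted p = 0.000119), and with Aβ40 the log2 fold change was -4.08 ± 0.57 (adjusted p = 0.000225).

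In microglia Csf3r had 50.3, 43.3 and 52.9 CPM without treatment, 0.800, 1.52 and 1.43 CPM with Aβ42, and 1.69, 3.13 and 4.60 CPM with Aβ40. All 3 groups were separate, with Aβ42 lowest. The fitted log2 fold change was -5.09 ± 0.22 (edgeR, adjusted p = 3.45e-09) and -4.07 ± 0.24 (adjusted p = 5.70e-08). Relative to the summed microglial marker counts, Csf3r was 0.342% ± 0.142 (SD, n = 3) in untreated astrocyte cultures and 0.383% ± 0.0273 in untreated microglia. It was 0.0143% ± 0.0247 with Aβ42 and 0.0748% ± 0.0858 with Aβ40 in astrocyte cultures, and 0.0223% ± 0.0105 and 0.0478% ± 0.0189 in microglia. On the common scale the order was untreated microglia (54.3 CPM), microglia with Aβ40 (3.48), untreated astrocytes (2.45), microglia with Aβ42 (1.41), astrocytes with Aβ40 (0.138) and astrocytes with Aβ42 (0.0319), and only the first and its neighbour, and microglia with Aβ42 and astrocytes with Aβ40, did not overlap. Nearest to Csf3r in pattern were Ly86 (r = 0.98), Rgs10 (0.98) and Slc4a5 (0.98).

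The GM-CSF receptor chains moved less. Csf2rb, the shared β chain that carries the signal, was at 100.1, 78.0 and 83.0 CPM in untreated microglia. It was at 287, 160.5 and 194 CPM with Aβ42 and 316, 313 and 326 CPM with Aβ40, and no groups overlapped. On the log2 scale the fold change was 1.28 ± 0.18 (edgeR, adjusted p = 0.000104) with Aβ42, 1.01 (adjusted p = 3.67e-07) without replicate 1, and 1.87 ± 0.19 (adjusted p = 5.72e-06) with Aβ40. In astrocyte cultures Csf2rb ranged from 5.27 to 6.96 CPM in the controls, 5.64 to 8.65 CPM with Aβ42 and 5.30 to 7.54 CPM with Aβ40, and neither change passed the test (log2 fold change 0.30, 95% interval -0.20 to 0.81, and 0.05, -0.45 to 0.56). Relative to the summed microglial marker counts, which fell, Csf2rb went from 0.770% ± 0.0702 (SD, n = 3) to 3.15% ± 0.528 with Aβ42 and 3.20% ± 0.647 with Aβ40 in astrocyte cultures, and from 0.687% ± 0.117 to 3.51% ± 0.275 and 4.96% ± 0.315 in microglia. On the common scale the order of Csf2rb was microglia with Aβ40 (354 CPM), with Aβ42 (239) and untreated (96.8), and the astrocyte groups, which overlapped, lay between 5.65 and 6.94 CPM. Aoah (r = 0.99), Apobr (0.99) and Fcgr2b (0.99) were nearest to it in pattern.

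Csf2ra, the ligand-specific α chain, was at 241, 189 and 239 CPM in untreated microglia. With Aβ42 it was at 251, 347 and 414 CPM and with Aβ40 at 221, 232 and 216.5 CPM. The Aβ42 libraries lay above the controls, replicate 1 by the least, while the Aβ40 libraries lay within the range of the controls. edgeR's log2 fold change was 0.60 ± 0.16 (edgeR, adjusted p = 0.00809) with Aβ42, 0.76 (adjusted p = 8.60e-06) without replicate 1, and -0.0010 with Aβ40 (95% interval -0.36 to 0.36). In astrocyte cultures the controls had 32.6, 9.33 and 28.5 CPM, replicate 2 again being the low one. The treated cultures had 17.9, 14.2 and 8.77 CPM with Aβ42 and 11.1, 15.6 and 12.7 CPM with Aβ40. The fitted log2 fold changes of -0.79 ± 0.38 (edgeR, adjusted p = 0.135) and -0.84 ± 0.38 (adjusted p = 0.113) did not pass the test, but without control replicate 2 they were -1.11 (adjusted p = 0.00141) and -1.18 (adjusted p = 0.000959). On the common scale microglia with Aβ42 had the most Csf2ra (379.8 CPM), the 2 other microglia groups overlapped at 248 CPM each, and the astrocyte groups overlapped between 12.4 and 21.9 CPM. Tubb3 (r = 0.996), Capg (0.994) and Fxyd2 (0.992) were nearest in pattern.

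Aβ42 and Aβ40 fibrils were then compared with each other. In astrocytes 1 of the 8 genes differed, where 0.0855% of all genes tested did: Csf3 was 1.94-fold higher with Aβ42 (log2 difference 0.96 ± 0.14; edgeR, adjusted p = 0.0366). This call was lost when any 1 of the 6 treated libraries was left out (adjusted p from 0.114 to 0.334), although the difference stayed between 0.91 and 1.03. In all, the Aβ42 and Aβ40 libraries did not overlap for 5 of the 8 genes, where 18.9% of all genes did not. Besides Csf3, Csf2 and Csf1r were higher with Aβ42, by log2 0.80 ± 0.19 (edgeR, adjusted p = 0.191) and 0.78 ± 0.19 (adjusted p = 0.210), and Csf1 and Il34 were lower, by -0.22 ± 0.12 (adjusted p = 0.962) and -0.61 ± 0.30 (adjusted p = 0.873), none of which passed the test. The part of microglial RNA in these differences was not tested.

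In microglia 2 of the 8 genes differed between the fibrils, where 20.3% of all genes did. Csf2ra was higher with Aβ42 (log2 difference 0.60 ± 0.16; edgeR, adjusted p = 0.0307) and Csf2rb was lower (-0.59 ± 0.18; adjusted p = 0.0403). Without Aβ42 replicate 1, 5 of the 8 genes differed, where 6004 of all 11155 genes tested in that fit did. The 5 were Csf2ra (0.76; edgeR, adjusted p = 2.89e-05), Csf2rb (-0.85, 1.00e-05), Csf2 (-0.93, 8.60e-06), Csf1 (-0.45, 0.00419) and Csf3r (-0.96, 0.0304). Without any 1 of the other 5 treated libraries none of the 8 passed, and between 99 and 154 genes did in all, with the adjusted p of Csf2ra between 0.0831 and 0.142 and that of Csf2rb between 0.0983 and 0.161. Csf3 (0.28, 95% interval -0.09 to 0.65) and Il34 (0.05, -0.73 to 0.82) passed in neither fit.

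**Figure D4:**
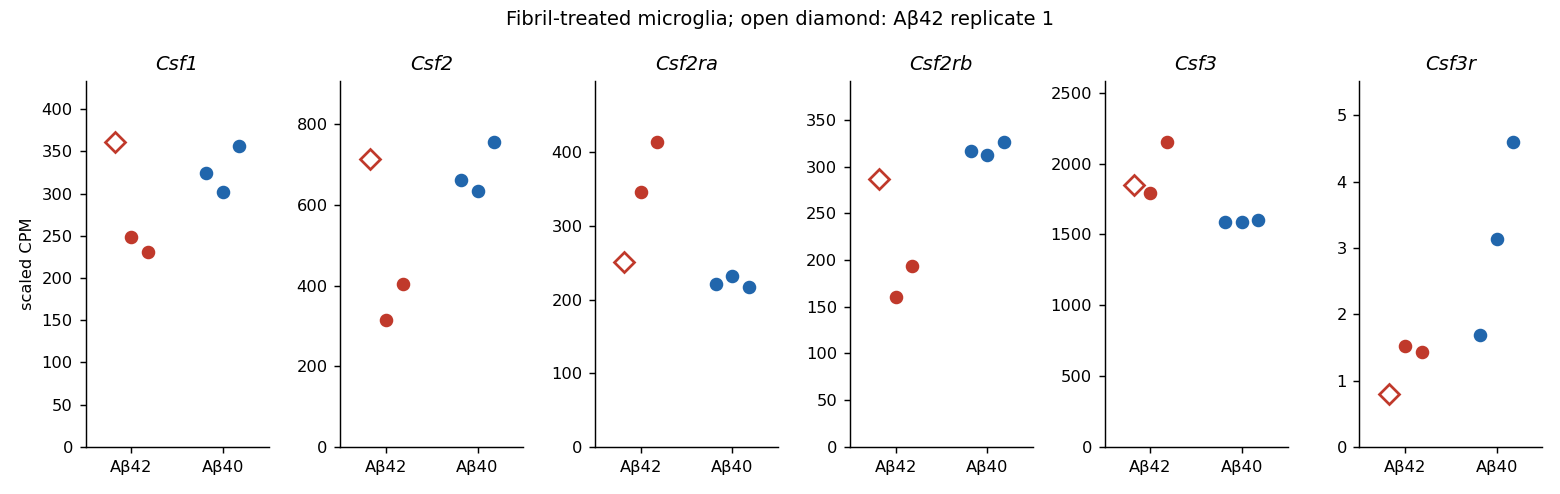
Scaled CPM of 6 genes in the 6 fibril-treated microglia libraries, with axes from 0; the open diamond is Aβ42 replicate 1, filled red circles are the other Aβ42 libraries and blue circles the Aβ40 libraries. For Csf1 (361 CPM) the diamond lies just above the Aβ40 libraries and for Csf2 (713) within their range, for Csf2ra (251) and Csf2rb (287) it lies between the Aβ40 libraries and the other Aβ42 libraries, and for Csf3r (0.800, from 2 counts) it is the lowest value.

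The untreated cell types differed in 7 of the 8 genes, where 68.8% of the 11581 genes tested in all 18 libraries did (34.2% higher and 34.5% lower in microglia). Of the 8, 6 were higher in microglia, namely Csf1r, Csf2ra (log2 difference 3.48 ± 0.31), Csf2rb (4.11 ± 0.22), Csf3r (4.31 ± 0.28), Csf2 and Csf3, and Il34 was lower (-4.86 ± 0.52; edgeR, adjusted p = 1.05e-07). Csf1 did not pass the test (0.23, 95% interval -0.08 to 0.55, adjusted p = 0.176); it passed without microglia control replicate 3 (0.36, adjusted p = 0.0474), and with library totals in place of TMM its sign turned to -0.04.

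Whether the response itself differed between the cell types was tested as an interaction. For Aβ42 5 of the 8 genes differed, where 37.3% of all genes did, and for Aβ40 3 of the 8, where 32.5% did. The change in Csf1 was smaller in microglia than in astrocytes, with a log2 difference of -1.08 ± 0.21 for Aβ42 (edgeR, adjusted p = 0.000520) and for Aβ40 (adjusted p = 0.000623). Csf1r fell less in microglia, by 0.73 ± 0.19 (adjusted p = 0.00594) and 1.48 ± 0.20 (adjusted p = 1.36e-05). The change in Csf2rb was larger in microglia, by 0.96 ± 0.29 (adjusted p = 0.0146) and 1.79 ± 0.29 (adjusted p = 0.000103). The part that microglial RNA in the astrocyte cultures had in the last 2 differences was not tested.

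Il34 and Csf2ra also responded differently to Aβ42, by 2.41 ± 0.71 (edgeR, adjusted p = 0.0118) and 1.38 ± 0.42 (adjusted p = 0.0130), and not past the threshold to Aβ40 (1.73, adjusted p = 0.112, and 0.83, adjusted p = 0.140). These calls rested on single libraries: for Aβ42, Il34 lost its call without microglia control replicate 1 (adjusted p = 0.0529) and Csf2ra without astrocyte control replicate 3 (adjusted p = 0.0510), whereas for Aβ40 both passed without astrocyte control replicate 2 (2.07, adjusted p = 0.0116, and 1.16, adjusted p = 0.00452). For Csf2, Csf3 and Csf3r no difference in response passed the test, and the astrocyte groups of 1 to 7 counts in total do not give its size. For Csf3 and Aβ42 the adjusted p was 0.0682, and 0.0222 without microglia control replicate 3.

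The genes of the signalling pathway below the receptors were described from a list of 35, of which 33 were tested. In astrocytes 12 rose and 7 fell with Aβ42 (16.5% and 20.4% of all genes did) and 10 rose and 7 fell with Aβ40 (14.9% and 18.4%), with a median log2 fold change of 0.29 and 0.25 against -0.0047 and 0.0017 over all genes. Stat5a, a transcription factor activated by GM-CSF, rose (2.47 and 2.23), as did the kinase gene Jak2 (2.06 and 2.07), while Inpp5d, encoding the myeloid phosphatase SHIP1, fell (-3.71 and -4.17). In microglia 10 rose and 11 fell with Aβ42 (27.1% and 26.6% of all genes) and 10 rose and 9 fell with Aβ40 (19.6% and 21.4%), with a median of -0.12 and 0.05 against 0.0096 and 0.0054 over all genes.

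In microglia Socs3 (6.39 and 6.04), Socs1 (5.02 and 3.26) and Cish (4.17 and 4.30) rose, which encode inhibitors of cytokine receptor signalling. Socs2, of the same gene family, was at 0.35 with Aβ42 (edgeR, adjusted p = 0.149) and rose by 0.60 with Aβ40 (adjusted p = 0.0448). Socs1 was the 1 gene of the list that was higher with Aβ42 than with Aβ40 in microglia (1.76), and Pik3r1 (-0.76) and Sos1 (-0.42) were lower. Over all genes 20.3% differed there. That was 2198 genes, against 106 with only the groups compared and 99 to 6004 with 1 library left out. Calls between the fibrils for genes of the lists were not repeated with those settings. Stat5a fell in microglia (-1.64 and -1.65), where its response differed from that in astrocytes by -4.09 and -3.90 (edgeR, adjusted p = 2.83e-11 and 1.11e-10). The PI3-kinase subunit gene Pik3cd also fell in microglia (-2.73 and -2.89) and rose in astrocytes (1.76 and 2.00), a difference of -4.49 and -4.91 (adjusted p = 6.15e-10 and 3.60e-10).

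**Figure D5:**
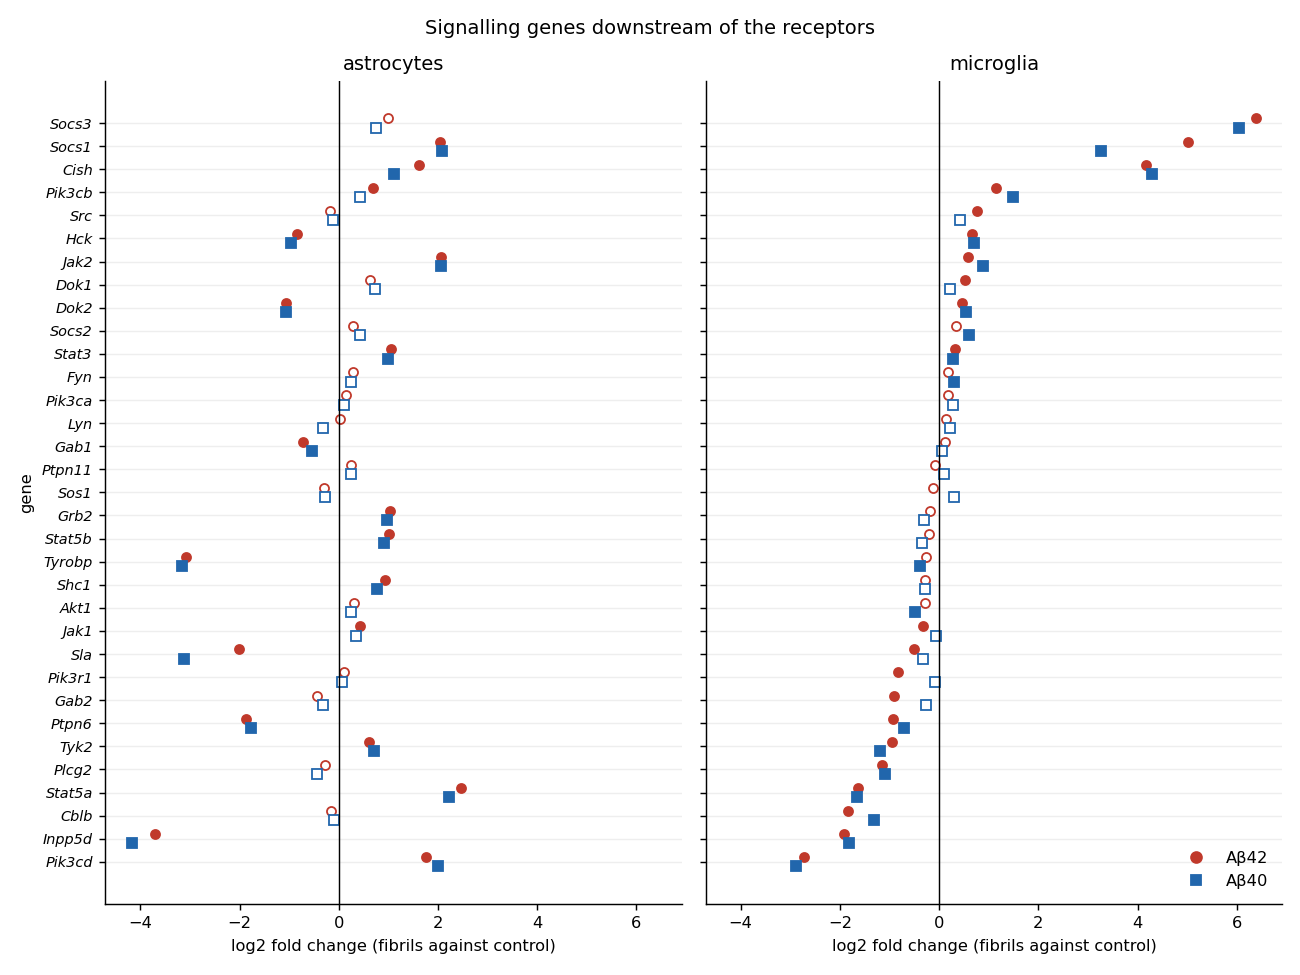
Fitted log2 fold change of 33 genes that act below the colony-stimulating factor receptors, with Aβ42 (circles) or Aβ40 (squares) against control in astrocytes (left) and microglia (right), ordered by the Aβ42 change in microglia; filled symbols passed the test at an adjusted p under 0.05. Socs3, Socs1 and Cish head the microglia panel at 3.26 to 6.39, and Stat5a and Pik3cd lie to the right of 0 in astrocytes and to the left in microglia.

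Of 33 known inducers and transcription factors of these genes 30 were tested. In astrocytes 16 rose and 5 fell with either fibril, and in microglia 17 rose and 9 fell with Aβ42 and 15 rose and 10 fell with Aβ40. Of all genes 16.5% rose and 20.4% fell with Aβ42 and 14.9% and 18.4% with Aβ40 in astrocytes, and 27.1% and 26.6% with Aβ42 and 19.6% and 21.4% with Aβ40 in microglia. The cytokine genes Il1b (7.07 and 6.70 in astrocytes, 4.27 and 4.35 in microglia) and Il1a (6.56 and 6.05, 6.27 and 6.64) rose in both cell types, as did Tnf (3.53 and 2.83, 3.25 and 3.54). Spi1, which encodes PU.1, fell in the astrocyte cultures (-2.14 and -2.82), where it is also one of the microglial markers above, and in microglia fell with Aβ40 (-0.47) and was at -0.15 with Aβ42. Irf8, a partner of PU.1 in myeloid cells, fell in microglia (-4.26 and -3.71), and Cebpb was 1.67 higher there with Aβ42 than with Aβ40.

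Of 11 tested genes for factors that act on AU-rich or stem-loop elements of cytokine mRNAs, 2 rose and none fell in astrocytes with either fibril, while in microglia 2 rose and 3 fell with Aβ42 and 3 rose and 2 fell with Aβ40. Over all genes 37.0% and 33.3% changed with Aβ42 and Aβ40 in astrocytes and 53.7% and 41.0% in microglia. Zc3h12a, encoding the ribonuclease Regnase-1, rose in astrocytes (4.04 with Aβ42) and in microglia (3.22 and 3.14), and Zfp36, encoding tristetraprolin, rose in microglia (0.85 and 1.31) and was at 0.03 and 0.12 in astrocytes. The difference in its response between the cell types passed the test for Aβ40 (1.17, adjusted p = 0.00827 by edgeR) and not for Aβ42 (0.81, adjusted p = 0.0527). Of 11 tested relatives of the receptors and ligands, 2 rose and 5 fell in astrocytes with Aβ42 and 2 rose and 6 fell with Aβ40, and in microglia 3 rose and 7 fell with Aβ42 and 3 rose and 5 fell with Aβ40, beside the same shares over all genes. Il3ra, the α chain that pairs with Csf2rb to bind interleukin-3, rose in microglia with Aβ42 (1.23) and was at 0.17 with Aβ40, and the difference between the fibrils passed the test (1.06).

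Of the growth and myeloid targets of colony-stimulating factors, 13 were tested in astrocytes, where 2 rose and 4 fell with Aβ42 and 2 rose and 6 fell with Aβ40, and 15 in microglia, where 5 rose and 6 fell with Aβ42 and 7 rose and 6 fell with Aβ40. The shares that changed over all genes were 37.0% and 33.3% in astrocytes and 53.7% and 41.0% in microglia. In microglia Ccl22, a chemokine gene that GM-CSF is known to induce, rose (7.31 and 8.66), and so did the kinase gene Pim1 (3.46 and 2.95). Irf4, a transcription factor that GM-CSF is known to induce in monocytes, fell (-4.62 and -4.36), as did the macrophage factor gene Maf (-1.11 and -0.91). The genes of the lists were chosen by role and describe RNA levels, not signalling.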

How the data were processed

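For each of the 18 libraries the authors deposited a table of counts, whole numbers of reads per gene symbol that are not normalized. The libraries were made from polyadenylated RNA with a kit that keeps strand. The study's methods and the submitters' processing notes name build rn5, STAR for alignment, Salmon for quantification and DESeq2 for gene counts, without versions. Whether counting used strand is not given in the sources used here. Rows that name no gene (26.0% to 34.2% of a library in astrocytes, 21.7% to 24.5% in microglia) were left out.

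Within each cell type the counts were filtered by filterByExpr, scaled by TMM and fitted for the 3 groups without covariates by edgeR 4.0.16 (glmQLFit, glmQLFTest; R 4.3.3), with Benjamini-Hochberg adjustment over all genes tested. The cell types were compared in a fit of all 18 libraries on 16704 shared symbols. Standard errors derive from the F statistic. Scaled CPM use the TMM factors, and log2 CPM for correlations a prior count of 2. The procedure was also run on counts simulated with the same spread for every gene. Far fewer genes changed there than in these data, so the simulation does not cover the conditions met here. No libraries held identical values. Tried instead, 1 at a time, were the Wald test of DESeq2 1.42.0, its size factors, library totals, other filters, a fit without the group that a comparison does not use, a block for replicate numbers, and the omission of every library in turn. All 8 genes are named, other genes by the lists or, for likeness, as the 3 highest correlations, except for items that are not reported here. The genes and lists were chosen with earlier results of these data known. Those named from a list were chosen after their values were seen.

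Promoter sequences were read from a RefSeq table of build GRCr8, and none of its coordinates was used with the counts.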

Additional observations from a re-analysis of the deposited data

Results flagged for a closer look

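By the interaction test of edgeR (adjusted p under 0.05), 5 of the 8 genes responded differently to Aβ42 in microglia and astrocytes. To Aβ40 3 of the 8 did. Over all genes tested 37.3% and 32.5% did so. The values below are log2 differences of microglia against astrocytes. For Aβ42 they were -1.08 for Csf1, 2.41 for Il34, 0.73 for Csf1r, 1.38 for Csf2ra and 0.96 for Csf2rb. For Aβ40 they were -1.08 for Csf1, 1.48 for Csf1r and 1.79 for Csf2rb. Both fibril comparisons share the control libraries of each cell type. In groups of 3 libraries no single value was tested for lying apart from its group.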

How the results depend on the processing

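Over the alternatives that kept all libraries, 457 fitted values of the 8 genes kept their direction and side of the threshold, 4 gained the threshold, 4 lost it and 8 turned in sign. With 1 library left out, the numbers were 478, 10, 22 and 18. Signs turned for changes that had not passed the test: Csf2ra in microglia with Aβ40 (0.011 with DESeq2's size factors and 0.012 with its Wald test, 0.0045 with the replicate block, 0.0066 with only the groups compared), the Csf3r difference in Aβ40 response (0.055 with size factors, 0.055 with library totals, 0.16 with the Wald test) and untreated Csf1 (-0.041 with library totals). Leaving out 1 library gave -0.088 to 0.082 for Csf2ra in microglia with Aβ40, -0.12 to 0.15 for Csf2rb in astrocytes with Aβ40, -0.18 to 0.28 for Csf2ra between the fibrils in astrocytes, -0.27 to 0.27 for Il34 and -0.056 to 0.13 for Csf1r between them in microglia, and -0.43 to 1.05 for Csf3r and -1.64 to 0.60 for Csf2 in the Aβ40 response between cell types. The cause was not tested. The ratio of Csf1r to the 5 homeostatic markers in astrocyte cultures was 0.409 (control over Aβ42, exact permutation p = 0.1) and 0.982 (control over Aβ40, p = 0.9).

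Between the fibrils in astrocytes 1 of the 8 genes and 10 genes in all were called. The numbers were 0 and 6 with at least 10 counts in every library, 0 and 0 with the replicate block, 3 and 141 with the Wald test, 2 and 265 with only the groups compared, and 0 to 0 and 0 to 4 with 1 library left out. In microglia 2 and 2198 were called, against 1 and 752 with the block, 0 and 106 with only the groups compared, and 0 to 5 and 99 to 6004 with 1 library left out. With at least 10 counts in every library, Csf2, Csf3 and Csf3r were not tested in astrocytes, and neither they nor Il34 between the cell types. Of the 8 genes 2 were called in astrocytes with Aβ42, 3 with Aβ40 and 3 between untreated cell types. Over all genes, 3479 and 3076 of 10223 were called in astrocytes, and 5541 of 8536 between untreated cell types. In microglia with Aβ40, 6 of the 8 were called with only the groups compared, where Il34 did not pass the filter on low counts and was not tested. The Aβ40 response between cell types differed in 3 to 5 genes with 1 library left out.

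Same-numbered libraries did not deviate together (Pearson r from -0.53 to 0.36 in astrocytes, 2 of 9 pairs above 0.1, and from -0.19 to 0.22 in microglia, 1 of 9), so the replicate number was not taken as a pairing. Some astrocyte libraries of different number and group did: r was -0.46 to 0.53, with 10 of 18 pairs above 0.1. In microglia such pairs had r from -0.21 to 0.23, with 2 of 18 above 0.1. The fit has no term for such shared deviations. With the replicate number as a block, Csf3 between the fibrils in astrocytes (edgeR, adjusted p = 0.327) and Csf2ra between them in microglia (adjusted p = 0.0560) lost their calls. Library totals moved the median of all genes between untreated cell types to -0.28, with 3017 genes higher and 5047 lower in microglia against 3966 and 3997 with TMM, and that of the Aβ42 response between cell types was 0.10 with DESeq2's size factors, with either test, against 0.04 with TMM. Depth limits Csf2, Csf3 and Csf3r in astrocytes and Il34 in untreated microglia, where a group held 1 to 7 counts. It also limits Csf3r in treated microglia, where Aβ42 replicate 1 held 2 counts.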

Other observations

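Markers of other cell types also moved with the fibrils. The summed level of the 13 astrocyte markers was 10361 to 12938 CPM in untreated astrocyte cultures, 7331 to 7507 CPM with Aβ42 and 8060 to 8275 CPM with Aβ40, with 8 and 7 of the 12 tested lower and 2 and 3 higher. Of all genes 20.4% and 18.4% were lower and 16.5% and 14.9% higher. Markers of the oligodendrocyte lineage summed to 1507 to 2362 CPM in untreated and 1143 to 1254 CPM in treated astrocyte cultures, and to 1850 to 2040 CPM in untreated and 2107 to 2770 CPM in treated microglia. Fibroblast markers went from 168 to 189 CPM to 63.7 to 123 CPM in astrocyte cultures and from 55.4 to 67.8 CPM to 119 to 162 CPM in microglia. Neuron markers summed to 412 to 495 CPM in untreated and 222 to 327 CPM in treated astrocyte cultures, and to 228 to 245 CPM in untreated and 315 to 375 CPM in treated microglia. Neutrophil markers went from 0.0703 to 0.718 CPM to 3.45 to 5.40 CPM in astrocyte cultures, where Camp was the 1 of 6 tested (log2 fold change 5.85 and 5.42), and from 0.386 to 0.707 CPM to 5.20 to 14.8 CPM in microglia. Their part in the levels of the 8 genes was not tested.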
